A study of Mus musculus with 6 samples.

Results

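The 10 core circadian clock genes Arntl, Clock, Per1, Per2, Per3, Cry1, Cry2, Nr1d1, Nr1d2 and Dbp were examined for histone H3 lysine 27 acetylation (H3K27ac), a mark of active promoters and enhancers, in mouse quadriceps (Quad). The peaks examined are those whose assigned gene in the peak lists was one of these 10 genes, whether the peak lay at the promoter or far from it. These were 32 of 46988 peaks in the list of control mice and 25 of 40721 peaks in the list of detrained mice. All 10 genes had at least 1 peak in each list.

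Wild-type male C57BL/6J mice were caged singly from 8 weeks of age, with a running wheel (detrained) or without one (control), for 4 weeks. Detrained quadriceps was taken after a rest of 72 h from running, and the comparison asks which H3K27ac differences remain after that rest. Each group had 2 ChIP-seq libraries, each made from 1 quadriceps muscle of 1 animal, and 1 input library of chromatin that was not precipitated. Columns C2 and C3 hold the control libraries and columns Ex1 and Ex2 the detrained libraries, and the hour of day at which each muscle was taken is not given in the sources used here. Total tags (mapped, deduplicated reads) ranged from 20805019 to 22400894 over the 4 H3K27ac libraries. Each list was called on the pooled libraries of 1 group and normalized on its own, with no raw count per library, so no test was made between groups. With 2 libraries against 2, an exact two-sided permutation test cannot give a p below 0.333. The values of single libraries were derived from deposited log2 values that had been regularized, which draws libraries of a list toward each other, so the SDs within groups given here may be smaller than those of counts, and the groups may separate more readily. Differences are read against the spread between the 2 libraries of a group and against the share of all peaks that differ in the same way.

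The labelled tissue was checked against marker genes. Of 6 muscle fibre markers, 4 had a peak over the start site in the control list and 5 in the detrained list, with 637 to 1211 and 565 to 850 pooled tags per 10000000. Endothelial and fibroblast markers also had start-site peaks, at 3 of 3 and 2 of 2 genes in both lists, and satellite cell markers at 2 of 2, while adipocyte markers had a peak at 0 of 2 genes in either list. Cardiomyocyte and neuron markers had a start-site peak at 0 of 3 and 0 of 2 genes in both lists, immune markers at 0 of 3 in control and 1 of 3 in detrained mice, and hepatocyte markers at 0 of 2 and 1 of 2, and the part of such cells in the clock gene values was not tested. Summed over the start-site peaks found in both lists, the 2 fibroblast markers held 1000 and 1008 tags in control against 1110 and 1189 in detrained mice, the 3 endothelial markers 501 and 604 against 867 and 630, and the 2 satellite cell markers 122 and 115 against 138 and 150. These sums were higher in both detrained libraries, by 1.14-fold, 1.35-fold and 1.22-fold, while the 4 muscle fibre markers held 3198 and 4043 against 2918 and 2795 and were lower in both (0.789-fold). Per kb of peak the ratios were 1.11, 0.849 and 1.03 for fibroblast, endothelial and satellite cell markers and 1.07 for muscle fibre markers, and the groups did not overlap for fibroblast markers only. These shifts are of the size of the clock gene differences given below. Whole muscle holds several cell types, so a change in the share of cells and a change in the mark per cell cannot be told apart.

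The circadian clock is a transcription loop that runs in nearly every cell, skeletal muscle included. BMAL1, the product of Arntl, pairs with CLOCK on E-box DNA and activates the Per, Cry, Nr1d and Dbp genes. PER and CRY proteins then repress BMAL1 and CLOCK, and the nuclear receptors REV-ERBα and REV-ERBβ, made by Nr1d1 and Nr1d2, repress Arntl through ROR elements. DBP is an output factor that activates genes, Per genes among them, through D-box DNA.

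These elements were looked for in RefSeq promoter windows (GRCm38.p6, 250 bases before to 50 bases after each start site), of which 13 belong to 9 of the 10 genes. All 13 windows lay inside an H3K27ac peak of both lists. The windows shown are those of an activator, 2 repressors of the PER family and 1 of the CRY family that hold an element, each written 5′ to 3′ on the strand of the gene, with the matched letters in capitals. They are Arntl at chr7:113207261-113207560 on the plus strand, Per1 at chr11:69098699-69098998 on the plus strand, Per3 at chr4:151044616-151044915 on the minus strand and Cry1 at chr10:85185005-85185304 on the minus strand.
Arntl: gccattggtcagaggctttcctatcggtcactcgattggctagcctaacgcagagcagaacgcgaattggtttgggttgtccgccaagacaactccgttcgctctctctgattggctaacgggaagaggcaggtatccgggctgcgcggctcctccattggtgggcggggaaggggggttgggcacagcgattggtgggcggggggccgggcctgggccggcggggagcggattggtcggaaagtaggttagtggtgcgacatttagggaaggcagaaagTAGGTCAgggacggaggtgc
Per1: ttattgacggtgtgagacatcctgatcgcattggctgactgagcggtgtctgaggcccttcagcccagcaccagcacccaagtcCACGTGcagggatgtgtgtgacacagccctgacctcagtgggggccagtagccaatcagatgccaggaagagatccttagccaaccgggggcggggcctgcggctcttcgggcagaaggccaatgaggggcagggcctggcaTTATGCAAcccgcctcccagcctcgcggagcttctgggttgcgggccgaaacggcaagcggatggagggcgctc
Per3: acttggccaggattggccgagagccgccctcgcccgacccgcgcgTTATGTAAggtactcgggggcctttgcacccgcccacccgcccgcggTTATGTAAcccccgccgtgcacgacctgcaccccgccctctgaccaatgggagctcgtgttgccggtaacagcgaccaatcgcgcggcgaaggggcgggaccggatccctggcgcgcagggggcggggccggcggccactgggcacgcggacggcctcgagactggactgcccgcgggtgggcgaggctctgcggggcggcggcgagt
Cry1: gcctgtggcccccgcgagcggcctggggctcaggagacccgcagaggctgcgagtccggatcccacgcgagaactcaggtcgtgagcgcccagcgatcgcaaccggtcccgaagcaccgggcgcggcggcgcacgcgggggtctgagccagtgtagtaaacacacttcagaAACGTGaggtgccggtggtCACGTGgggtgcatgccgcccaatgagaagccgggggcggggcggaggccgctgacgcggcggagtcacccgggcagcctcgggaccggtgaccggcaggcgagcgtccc

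The matches are letters on either strand, positioned by their first base with the start site at 0, and a match is a description and not a binding site. The E-box CACGTG was present at Per1 (-166) and Cry1 (-60), and 7.15% of all 32851 windows hold it. The related letters CACGTT were found at Cry1 (-79), Cry2 (-166) and Nr1d1 (-28), against 4.68% of all windows. The D-box TTATGTAA occurred in the Per3 window at -205 and at -158, against 0.938% of all windows with at least 1 copy, and its relative TTATGCAA occurred at Per1 (-24), against 0.743%. The ROR element TAGGTCA was found at Arntl (30), against 2.61% of all windows, and lay in only 1 of the 2 overlapping Arntl windows. The cAMP response element TGACGTCA was in 0 of the 13 windows, against 1.79% of all windows. The 13 windows had a median GC content of 64.7%, against 52.7% over all windows.

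Every clock gene had exactly 1 peak that covered its start site in each list, and the remaining 22 control and 15 detrained peaks lay elsewhere. Of the peaks away from the start site, 16 control and 9 detrained peaks were centred in introns and 6 and 5 were intergenic. Arntl, the activator, had the most peaks, with 10 in the control and 8 in the detrained list, spread from 26928 bp upstream to 53431 bp downstream of its start site in the control list. Nr1d2 had 5 and 2, Per2 4 and 3, and Cry1 4 and 3, while Per3, Cry2 and Nr1d1 each had 2 in both lists. Clock, Per1 and Dbp each had a single peak. The control list was also the longer one. When only as many of the densest control peaks were kept as the detrained list holds, the clock genes had 26 control and 25 detrained peaks. Among peaks at least 4-fold over input with an adjusted p under 0.001, as the authors' caller gave them, they had 18 and 21, and the whole lists changed order in the same way, from 46988 control and 40721 detrained peaks to 23830 and 25031.

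**Figure D1:**
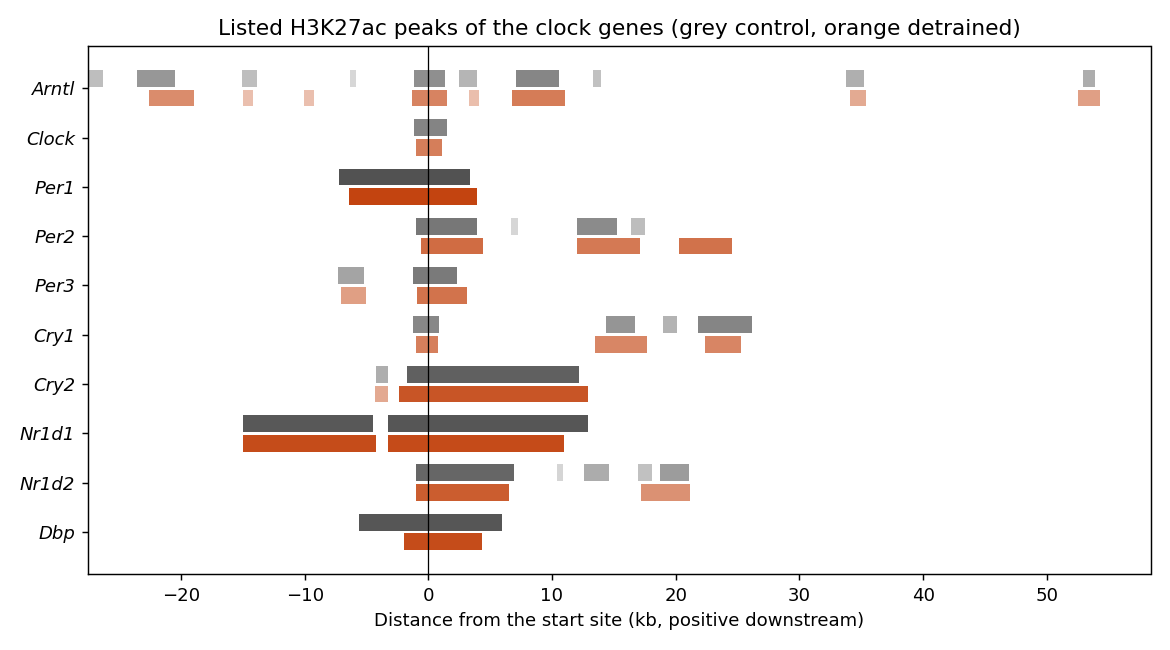
Listed peaks of the 10 clock genes as bars along the distance from the start site in kb, with control peaks in grey above detrained peaks in orange; darker bars have more pooled tags. Each gene has 1 bar across the start site in each list, and Arntl has the most bars, 10 and 8.

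The clock genes held several broad domains. Peaks of at least 10 kb made up 1.40% of the control and 1.57% of the detrained list, and 5 of the 32 control and 4 of the 25 detrained clock peaks were of this length. The start-site peak of Nr1d1 measured 16200 bp in the control and 14243 bp in the detrained list and extended across Nr1d1 and into the neighbouring gene Thra. A further Nr1d1 peak of 10527 and 10785 bp, centred 9698 and 9591 bp upstream, overlapped no protein-coding gene. The Cry2 start-site peak covered 13959 and 15328 bp, centred in intron 1, and the Per1 peak 10621 and 10337 bp. The control Per1 peak also reached into the neighbouring gene Vamp2, and the detrained one did not. The Dbp peak was broad in control mice only, at 11504 bp, where it also took in the start site of the neighbouring carbonic anhydrase-related gene Car11, and it was 6297 bp long in the detrained list. Clock peaks ranged from 25 to 8841 estimated pooled tags in control and from 58 to 9492 in detrained mice.

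Levels were compared between genes as tags per 10000000 per kb of peak. In control mice Per1, a repressor, had the densest start-site peak, with 182 in C2 and 194 in C3, and it ranked 12 among 10778 start-site peaks. Dbp came next with 135 and 168, at percentile 99.3. Both stood above all other clock genes in each control library.

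The middle of the order was crowded. Nr1d2 had 98.3 and 113 tags per kb, Nr1d1 91.8 and 117, Per3 87.0 and 107, and Cry1 87.5 and 104, and neighbours among these 4 overlapped between libraries. Clock (83.2 and 84.4), Cry2 (70.7 and 84.7) and Per2 (73.6 and 80.04) followed, again with overlap between neighbours. Arntl was lowest, with 52.8 and 54.7, below Per2 in both libraries and at percentile 41.2.

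In detrained mice the order began with Dbp, at 267 in Ex1 and 248 in Ex2, which ranked 1 among 10753 start-site peaks, then Per1, at 215 and 210. Nr1d1 followed with 125 and 115, and Cry1 with 115 and 103, Nr1d2 with 115 and 101 and Clock with 101 and 93.6 overlapped as neighbours. Per2 (84.9 and 82.9), Per3 (82.3 and 79.2), Cry2 (72.6 and 70.5) and Arntl (59.3 and 55.9) closed the order without overlap. By tags per kb, Arntl was thus the lowest clock gene in all 4 libraries and the only one below the median of all start-site peaks, in either list. By tags per peak Arntl stood at percentile 49.2 in the control and 59.8 in the detrained list, and Dbp, with 1620 pooled tags in the detrained list, came after Per1 (2200 tags) and Nr1d1 (1704 tags). The median percentile of the 10 genes was 86.8 in control and 90.3 in detrained mice, with 7 and 8 of the 10 above the upper quartile.

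**Figure D2:**
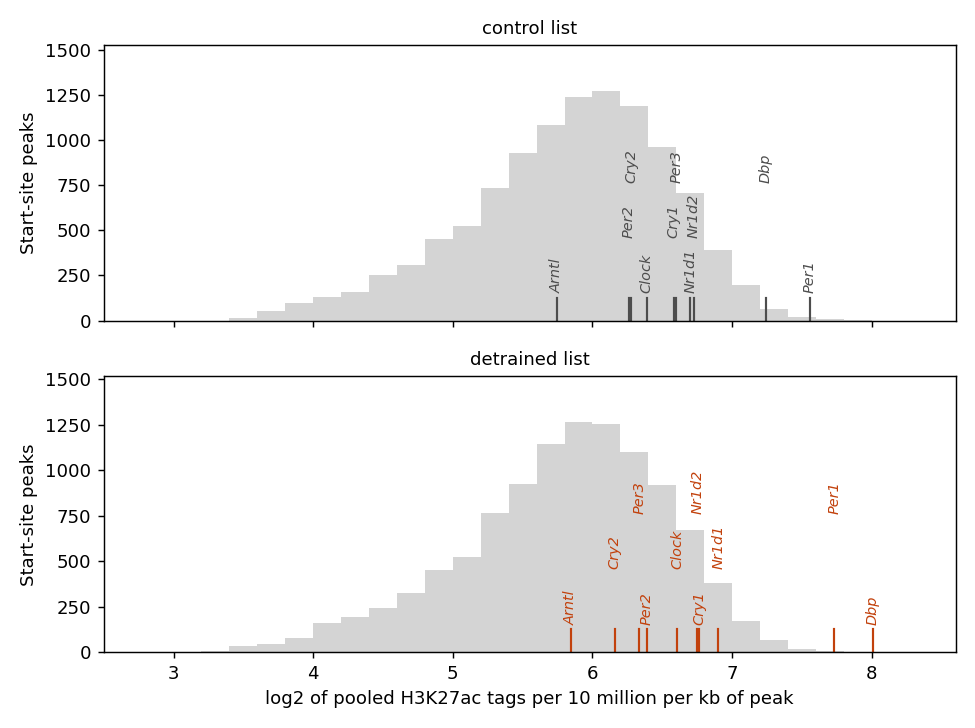
Number of start-site peaks (y axis) by log2 of pooled tags per 10000000 per kb (x axis) for all 10778 control and 10753 detrained start-site peaks in grey, with a coloured tick and name for each clock gene. Per1 and Dbp lie at the right end in both lists and Arntl lies left of the other clock genes.

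The 2 control libraries differed from each other at these promoters. C3 was above C2 at 10 of 10 clock start-site peaks, against 56.7% of all control start-site peaks, with a median ratio of 1.17-fold at the clock peaks and 1.02-fold over all. The widest gaps were at Nr1d1, Per3 and Dbp, and the narrowest at Clock and Arntl. Ex2 was below Ex1 at 10 of 10 clock start-site peaks with a median ratio of 1.07-fold, and Ex2 was the higher library at 23.8% of all detrained start-site peaks, with a median ratio of 1.08-fold. The spread within the control group at clock promoters was therefore of the size of most differences between the groups given next.

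A control and a detrained peak were taken as shared when each covered at least 50% of the other and they matched one to one. This held for 23 clock pairs, among 26432 pairs in all. A pair was called higher when each detrained library exceeded each control library, and lower in the reverse case; all others overlap. Because the length called for a peak differed between the lists, each pair was measured as tags per kb and as tags per peak. Per kb, 6 clock pairs were higher and 5 lower in detrained mice, beside 21.3% and 27.3% of all shared pairs. Per peak, 7 were higher and 3 lower, beside 24.6% and 28.8%. The median log2 difference (detrained minus control) was 0.030 per kb and 0.026 per peak, and over all shared pairs it was -0.026 and -0.019. With tags scaled to those in listed peaks, 9 pairs were higher and 4 lower per kb, beside 27.8% and 22.1% of all shared pairs on that scaling. With the median of all pairs set to 0 the split was 8 and 4, beside 24.4% and 24.1%. On the deposited log2 values 16 clock pairs were higher and 2 lower, beside 55% and 11% of all shared pairs, whose median difference was 0.21. Relative to that median 7 clock pairs were higher and 3 lower, beside 27% and 26.8%. The sign differed between the scales at 15 of the 23 clock pairs, against 48.4% of all pairs.

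A set of 3 clock peaks was higher in detrained mice on both scales, namely the start-site peaks of Per1, Per2 and Arntl, and 0 clock peaks were lower on both. Among all shared pairs 6.31% were higher and 9.59% lower on both scales, and among the 9339 shared start-site pairs 3.64% and 9.78% were. The count of 3 of 10 start-site pairs thus stood above the share over all start-site pairs, without a test.

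At Per1, whose protein joins CRY in repressing BMAL1 and CLOCK and whose promoter letters are shown above, the peak held 1938 (C2) and 2065 (C3) tags in control mice against 2225 (Ex1) and 2175 (Ex2) in detrained mice. Both detrained libraries were above both control libraries, by 0.14 log2 per peak and 0.18 per kb (SD within groups 0.049, n = 2 and 2), or 1.10-fold and 1.13-fold. Leaving out each library in turn gave 0.13 to 0.22 per kb. Where the groups do not overlap, here and at the peaks below, this cannot turn the sign, so the range shows only the size.

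At Per2, the other light- and hormone-responsive Per gene, the start-site peak held 365 and 397 tags in control mice against 429 and 420 in detrained mice. The difference was 0.16 log2 per peak and 0.13 per kb (SD 0.063, n = 2 and 2), or 1.12-fold and 1.09-fold, with 0.068 to 0.19 per kb when each library was left out.

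At Arntl, which encodes the activator BMAL1, the start-site peak held 132 and 137 tags in control mice against 169 and 160 in detrained mice. This was 0.29 log2 per peak and 0.10 per kb (SD 0.049, n = 2 and 2), or 1.23-fold and 1.07-fold, and 0.058 to 0.14 per kb without each library. All 3 peaks also kept both detrained libraries above both control libraries after subtraction of input, after scaling to tags in listed peaks, and on the deposited log2 values relative to the median of all shared pairs.

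**Figure D3:**
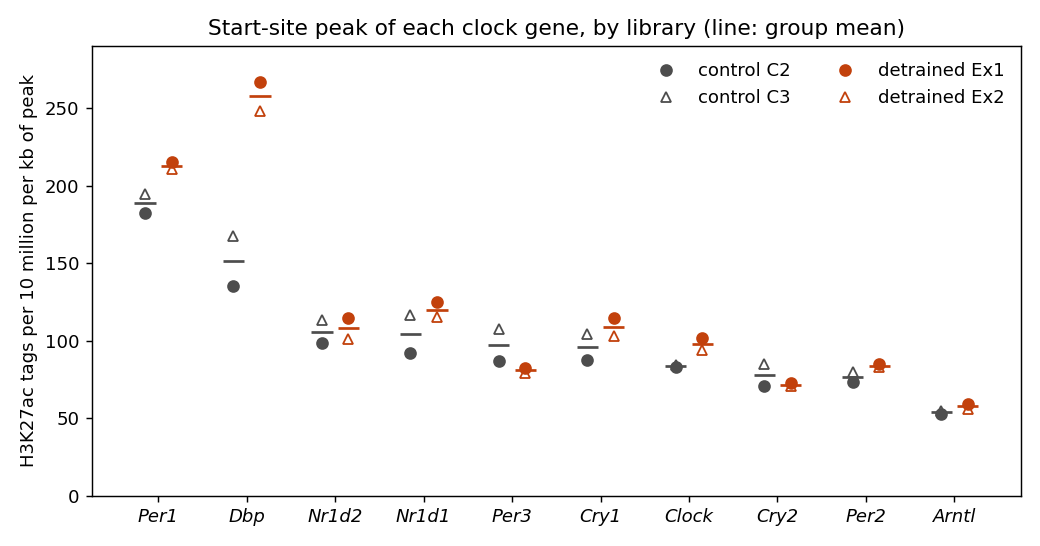
H3K27ac tags per 10000000 per kb (y axis) in the start-site peak of each clock gene, with 1 symbol per library, control in grey and detrained in orange, and a line at each group mean. Both detrained symbols lie above both control symbols at Per1, Dbp, Clock, Per2 and Arntl, and both lie below at Per3.

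The start-site peaks of the other genes gave a different answer on each scale or overlapped between groups. Over the 10 start-site pairs, 5 were higher and 1 lower per kb, beside 22.8% and 30.3% of all shared start-site pairs.

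At Dbp the density was 1.71-fold higher in detrained mice (0.77 log2 per kb, SD 0.16, n = 2 and 2), the only clock pair past 1.5-fold, beside 1.09% of all shared pairs that were higher by at least that much. The tags in the peak were not higher, with 1555 and 1930 in the control libraries against 1679 and 1564 in the detrained ones, and the groups overlapped. The called length moved with the density, from 11504 to 6297 bp. When the peak given to Car11 in the detrained list, which the longer control peak covers, was added, the locus held 1717 tags in Ex1 and 1609 in Ex2, a log2 difference of -0.060.

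Clock, the partner of BMAL1, was higher per kb (0.22 log2, SD 0.059, n = 2 and 2) but lower per peak, with 220 and 223 tags in control against 214 and 197 in detrained mice. Its called length went from 2645 bp to 2106 bp. With tags scaled to those in listed peaks, its difference per peak was -0.061 log2 and the groups overlapped. Per3 was lower per kb (-0.26 log2, SD 0.15), with 315 and 389 tags against 329 and 317 per peak, which overlapped. Its detrained values lay close to the C2 value and below C3. Leaving out each library in turn gave -0.41 to -0.11 per kb, with -0.11 when C3 was left out.

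Cry1, Cry2, Nr1d1 and Nr1d2 overlapped between groups on both scales at the start site. Cry1 held 182 and 217 tags in control against 201 and 181 in detrained mice, and Cry2 987 and 1182 against 1112 and 1080. The CRY repressors therefore differed between groups by less than the 2 control libraries differed from each other. Nr1d1 held 1486 and 1888 against 1777 and 1637 tags, and its upstream domain 1466 and 1651 against 1663 and 1578. Nr1d2 held 775 and 894 against 859 and 758 tags. At each of these REV-ERB peaks at least 1 detrained library lay between or below the control libraries. These calls depended on the scaling, since with tags scaled to those in listed peaks the upstream domain of Nr1d1 was higher on both scales (0.073 log2 per kb and 0.11 per peak), and the start-site peaks of Nr1d1 (0.26) and Cry1 (0.24) were higher per kb and overlapped per peak.

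Of the 13 shared clock peaks away from a start site, 10 changed sign between the scales. In intron 4 of Per2 the peak held 168 and 160 tags in control against 252 and 237 in detrained mice, a log2 difference of 0.58 per peak and -0.078 per kb, without overlap of the groups on either scale. Per kb the groups overlapped with tags scaled to those in listed peaks (-0.028) and after subtraction of input (-0.032). The called length went from 3247 bp in the control list to 5112 bp.

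A Per2 peak in intron 9 was given to the neighbouring gene Hes6 in the control list and to Per2 in the detrained list, since its centre lies nearly midway between the start sites. It held 257 and 231 against 331 and 330 tags (0.44 log2 per peak, -0.024 per kb). Counting that peak for both groups, the summed tags of Per2 were 815 and 810 in control against 1012 and 987 in detrained mice, 1.23-fold higher. Summed by assigned gene alone the Per2 difference was 0.81 log2, most of which was this change of assignment.

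The first intron of Cry1 showed the same dependence in both directions. The peak 15555 bp downstream held 86.7 and 128 tags in control against 143 and 146 in detrained mice, a log2 difference of 0.45 per peak and -0.43 per kb. The peak 23983 bp downstream held 213 and 210 against 167 and 134 tags, a log2 difference of -0.49 per peak, with overlap per kb. Around Arntl, the peak 14463 bp upstream was higher per kb (0.17 log2) and lower per peak (-0.38), and the peak 53431 bp downstream was higher per peak only, with 28.8 and 44.2 against 51.8 and 51.01 tags. At Nr1d2 the intron 3 peak differed by -0.55 log2 per kb and overlapped per peak. The detrained peak there (3952 bp) touched 2 control peaks, and only the longer of these (2339 bp) was compared. With both control peaks joined, the difference in summed tags was -0.045 log2 and the groups overlapped.

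**Figure D4:**
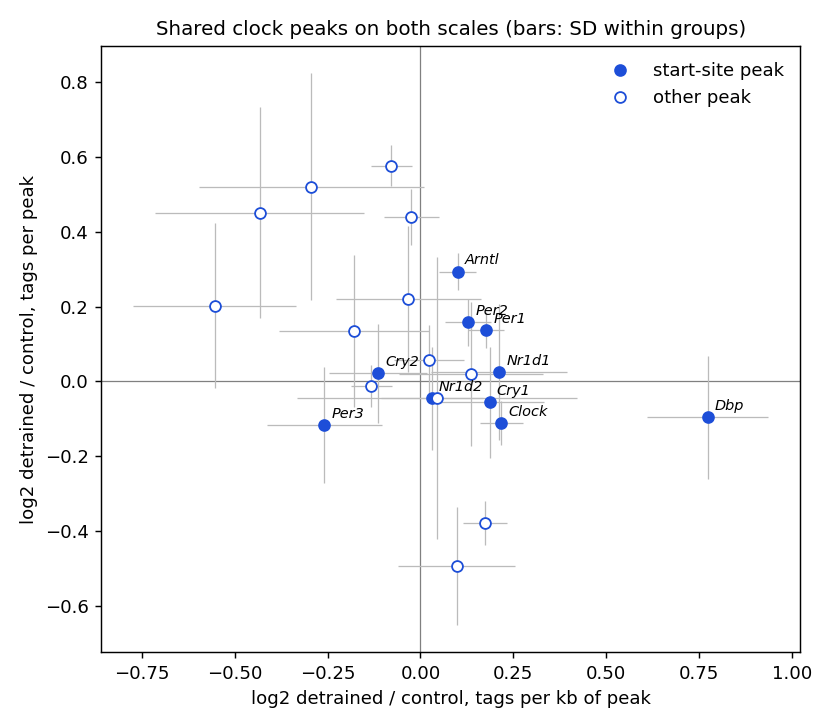
Log2 difference between detrained and control mice per kb (x axis) and per peak (y axis) for the 23 shared clock peaks, with start-site peaks filled and named and bars of 1 SD within groups. Per1, Per2 and Arntl lie in the upper right, Dbp lies far right near 0 on the y axis, and most open symbols lie in the upper left or lower right.

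When all peaks that touch were joined into loci and their tags summed, 24 clock loci were present in both lists, of which 7 were higher and 4 lower, beside 28.1% and 29.5% of all 31776 loci. The median difference was 0.021 log2. All 3 Per2 loci were among the 7, at 1.12-fold at the start site, 1.34-fold in introns 4 to 6 and 1.36-fold in intron 9. The other 4 were the start-site peaks of Per1 and Arntl, the Arntl peak 53431 bp downstream (1.43-fold) and the Cry1 peak 15555 bp downstream (1.37-fold). The 4 lower loci were the Clock start site (0.926-fold), the Cry1 peak 23983 bp downstream (0.710-fold) and Arntl peaks 14463 bp upstream (0.769-fold) and 3231 bp downstream (0.583-fold). The Arntl peak 3231 bp downstream was called over 1465 bp in the control list and 785 bp in the detrained list. Its pooled tags per kb were 17.3 and 18.6, so it was not lower per kb. Summed over all peaks assigned to a gene, Per1 and Per2 were higher, Clock was lower, and the other 7 genes overlapped. Over the 13524 genes with a peak in both lists, 24.3% were higher and 35.2% lower by the same sums. The clock counts of 2 higher and 1 lower rested on single libraries and on the scale, as did the shares over all genes. Without C2 they became 2 and 7, beside 30.2% and 51.4% of all genes, and without C3 7 and 1, beside 38.4% and 41.8%. Without Ex1 they were 2 and 3, beside 27.6% and 51.6%, and without Ex2 3 and 1, beside 38.7% and 39.3%. Per kb covered they were 4 and 0, beside 25.5% and 28.1%. With tags scaled to those in listed peaks, the sums of Arntl and Nr1d1 were also higher and that of Cry1 was lower. The sum of Clock then overlapped (-0.061 log2). The share over all genes on that scaling was not computed.

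Some weak clock peaks were listed in 1 group alone. Of the 32 control clock peaks, 7 (21.9%) had no overlapping detrained peak, beside 27.9% of all control peaks. They held 5.66 to 39.1 pooled tags per 10000000, against a median of 164 at the clock peaks found in both lists, and 0 of them covered a start site. They comprised 3 peaks near Arntl, 2 in intron 1 of Nr1d2, and 1 each in intron 1 of Per2 and Cry1. Of the 25 detrained clock peaks, 1 had no control peak, beside 18% of all detrained peaks, and it lay 9651 bp upstream of Arntl with 13.4 tags. An unlisted peak is one that did not pass the peak caller and is not a measured level of 0.

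Genes that tune the clock were taken as a separate list of 23, which holds the BMAL1 and CLOCK relatives Npas2 and Arntl2, the ROR receptors, the PAR-bZIP factors Tef and Hlf with their antagonist Nfil3, and kinases and ubiquitin ligase subunits that act on clock proteins. Of these, 20 had a peak in each list, 18 had a start-site peak in both, and 3 (Bhlhe40, Fbxl21 and Gsk3b) had no peak assigned by name. Among their 65 shared pairs 10 were higher and 22 lower per kb, beside 21.3% and 27.3% of all shared pairs, and 12 and 29 per peak, beside 24.6% and 28.8%, with median log2 differences of -0.069 and -0.12. With the median of all pairs set to 0 the split per kb was 12 and 17, beside 24.4% and 24.1% of all shared pairs. On the deposited log2 values it was 30 and 12, beside 55% and 11%, or 14 and 26 relative to all shared pairs, beside 27% and 26.8%. On both scales 2 pairs (3.08%) were higher and 10 (15.4%) lower, beside 6.31% and 9.59% of all shared pairs. Rora alone provided 21 of the 65 pairs, so these are not independent genes.

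The largest increases per kb were at a peak 87624 bp upstream of the repressor Nfil3 (28.3 and 40.3 against 50.4 and 47.6 tags per kb, 0.54 log2 per kb and per peak), a peak 23080 bp upstream of Fbxw11, a ubiquitin ligase subunit that binds phosphorylated PER (0.49 per kb, -0.16 per peak), and the start site of Cipc, a CLOCK-binding repressor (0.31 per kb, -0.14 per peak). Of these only the Nfil3 peak was higher on both scales. Large decreases per kb were at a peak in intron 1 of Rora, an activator of Arntl, centred 197583 bp upstream of its nearest annotated start site (-0.56 per kb and -0.17 per peak), and at a peak 61563 bp upstream of Btrc, a relative of Fbxw11 (73.0 and 69.1 against 47.0 and 52.6 tags per kb, -0.51 and -0.52). The Rora and Btrc peaks were lower on both scales.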

How the data were processed

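H3K27ac ChIP-seq was analysed from 1 annotated peak list per group (6 samples in all). Per the labels and the methods, the authors aligned reads to mm10 (Bowtie 1.2 in the submitters' processing notes), kept unique reads and 1 tag per position, and called peaks with HOMER over the pooled libraries of a group against its input, at 2-fold enrichment. The deposited pooled signal is tags per 10000000, as the authors' caller gave it. The deposited log2 values per library were regularized by the authors with DESeq2 within each list. Here, the pooled tags of a peak were shared between the 2 libraries in proportion to their totals and unlogged values. Totals were 20805019 to 22400894 tags, and 10812470 and 21298438 for input, which limits precision most at weak peaks. Log2 values used a pseudocount of 0.5 tags. Peak lengths count both ends. A start-site peak is one that contains the assigned start site. A library-level difference is called only where groups do not overlap. This sharing and the comparison were tested on simulated data. The deposited columns of fold enrichment and p-value against input are the authors' own comparisons and were not reported; they served only as a stricter filter (4-fold, adjusted p under 0.001). Start sites matched RefSeq GRCm38.p6 promoter windows within 1 bp for 9 genes; no Per2 window was used. All 10 members were named. From the list of clock-tuning genes, the 3 largest increases and 3 largest decreases per kb were to be named, 1 peak per gene (1 of the decreases is not reported here), with the 5 genes whose start-site levels were most like the members' median. Members and lists were chosen with earlier results of these data known. Python 3, numpy and pandas were used. Alternatives were tags per peak, deposited log2 values, other overlaps, pseudocounts, scalings and filters, input subtraction, merged loci, and leaving out each library. Merged loci, and sums that count overlapping peaks whatever gene they were given to, were added after seeing the data.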

Additional observations from a re-analysis of the deposited data

How the results depend on the processing

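The median log2 difference at shared clock peaks (0.030) moved by less than the spread between libraries (SD 0.075) under each alternative but 2, the deposited log2 values (0.26, where all shared pairs had a median of 0.21 and the clock pairs stood 0.054 above it) and the removal of a detrained library (Ex2), and it ranged from -0.025 to 0.12 when each library was left out. The clock-tuning list (-0.069) turned to 0.098 on the deposited log2 values, which is -0.11 relative to all shared pairs, and ranged from -0.11 to -0.030 without each library. The median of summed tags per gene was -0.038 and became 0.15 per kb covered and -0.11 to 0.11 without each library, with the higher value when C3 was left out. With single peaks, the direction reversed per peak and over merged loci for Clock (-0.11 in both) and Dbp (-0.096 and -0.060), on the deposited values for Per3 (0.12, or -0.087 relative to all shared pairs), and per kb covered for the summed tags of Clock (0.22). Differences whose groups overlapped also turned sign, per peak and over merged loci at the start sites of Cry1 (0.19 to -0.056), Cry2 (-0.11 to 0.021) and Nr1d2 (0.030 to -0.045), and per kb covered for the summed tags of Dbp (-0.096 to 0.77), Nr1d2 (-0.11 to 0.17) and Cry2 (0.020 to -0.11); the cause was not tested beyond the called lengths given with these peaks. The number of clock pairs higher and lower was 6 and 5 and became 16 and 2 on the deposited values (55% and 11% of all shared pairs), 8 and 10 without C2 (30.4% and 45.6%), 11 and 7 without C3 (38.7% and 37%), 6 and 10 without Ex1 (28.9% and 43.4%) and 11 and 5 without Ex2 (37.2% and 36%), 5 and 3 among 21 one-to-one pairs with any overlap (21.9% and 27.3%), and 3 and 2 among 13 pairs at 80% overlap (16.5% and 23.7%). For the clock-tuning list 10 and 22 became 2 and 10 among 33 pairs at 80% overlap (16.5% and 23.7% of all such pairs). Among 82 merged loci they were 18 and 35 (28.1% and 29.5% of all loci). Without each library they were 14 to 20 and 30 to 36, beside 28.9% to 38.7% and 36% to 45.6% of all shared pairs. Under the stricter filter against input (4-fold, adjusted p under 0.001), 18 control clock peaks remained in place of 32 and 21 detrained in place of 25, while the whole lists fell to 23830 and 25031 peaks and so changed order in the same way, 0 in place of 7 were in the control list alone (11.3% of all such peaks) and 2 in place of 1 in the detrained list alone (15.4%). Median start-site percentiles were 92.3 and 93.8 by tags per peak in control and detrained mice, and 74.6 and 85.9 with the 3 genes whose peak centre was annotated as promoter. Leaving out start-site peaks leaves 7 genes in the summed tags. No paired analysis was possible because no label ties a control animal to a detrained one, the control columns carry other numbers than the labels, and no result came from a test. The shallowest clock peaks rest on 25 to 58 tags over both libraries of a group, so differences there are limited by counting.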

Other observations

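The clock peaks together held 0.106% and 0.123% of all tags in the control libraries C2 and C3 and 0.122% and 0.115% in the detrained libraries Ex1 and Ex2, so that the groups overlapped. By root mean square difference in log2 tags per kb over the 4 libraries, the start-site peaks nearest to the median clock start-site peak among 9362 genes were those of Ddx59 (0.016), Rpn2 (0.021), Sod1 (0.025), Nod1 (0.029) and Acin1 (0.036). These values describe likeness in level and in order of the 4 libraries, which share their depth and processing.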
